A study of Mus musculus with 6 samples.

Results

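Genes that sense the energy state of the cell were examined for binding of thyroid hormone receptor α (TRα) in ageing mouse muscle. The 5 genes were Prkaa1, Prkaa2, Stk11, Sirt1 and Sirt2. A chromatin immunoprecipitation peak was counted for one of them when the annotation text left behind its row in the deposited peak table named a protein of that gene. By this rule 23 of 491681 peaks belonged to the 5 genes, among 3812 peaks that carried a gene name and 395 genes that were named at all. Such text followed 0.692 to 0.840% of the peaks of a list, so most genes of the genome cannot appear among the named ones, and a gene may have peaks that carry no name.

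The libraries came from whole gastrocnemius, the large calf muscle, of mice aged 6 months (labelled youth), 15 months (mid) and 21 months (old), with 2 mice at each age and an antibody to TRα in every library. The sources used here do not state genotype, strain, sex or treatment. Each mouse had its own peak list, called against an input library whose name carries the same mouse. Whole muscle holds fibres, vessels, nerve and immune cells, and binding in fewer cells cannot be told apart from weaker binding per cell. No expression was measured in these libraries, so the tissue label was not checked against marker genes.

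AMP-activated protein kinase (AMPK) is switched on when ATP falls, and it turns cells towards fuel uptake, fatty acid oxidation and mitochondrial renewal. Prkaa1 and Prkaa2 encode its alternative catalytic subunits α1 and α2, of which α2 is the prominent form in skeletal muscle. Stk11 encodes LKB1, the upstream kinase that activates AMPK by phosphorylating the catalytic subunit. Sirt1 and Sirt2 encode deacetylases that use NAD+ and so respond to the redox state. Sirt1 acts largely in the nucleus, where the coactivator PGC-1α is one of its substrates, and Sirt2 is mainly cytoplasmic and deacetylates tubulin. TRα is a nuclear receptor for thyroid hormone, which raises oxidative metabolism in muscle.

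The annotation text in the deposited tables also placed the 5 genes in KEGG pathway maps. Prkaa1 and Prkaa2 held the same 20 maps. All 8 maps of Stk11 were among them, and Sirt1 shared 5 of its 10 maps with each AMPK subunit. The AMPK signalling, FoxO signalling and longevity maps each held 4 of the 5 genes, all but Sirt2. Among all 395 named genes, 27 were in the AMPK signalling map and 29 in the longevity map. The 23 genes of the AMPK signalling map outside the 5 had a median of 6 peaks. Sirt2 had 2 maps, of which it shared 1, nicotinate and nicotinamide metabolism, with Sirt1 and 0 with the kinases. No map held all 5.

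The 23 peaks were few and spread thinly over the mice. Together, with replicate 1 given before replicate 2, the 5 genes had 2 and 3 peaks in the 6-month mice. They had 4 and 2 peaks in the 15-month mice, and 3 and 9 in the 21-month mice. Replicate 2 at 21 months alone gave 9 of the 23. Lists differed in length, from 29405 to 106152 peaks, so the counts were also expressed per 10000 peaks of the list. The rates with exact (Clopper-Pearson) 95% intervals were 0.253 (0.0306 to 0.914) and 0.283 (0.0583 to 0.826) at 6 months. They were 0.402 (0.110 to 1.03) and 0.680 (0.0824 to 2.46) at 15 months, and 0.327 (0.0675 to 0.956) and 1.05 (0.479 to 1.99) at 21 months. These intervals cover counting error only, and all of them overlap. The mean rate was 0.268 ± 0.0209 at 6 months, 0.541 ± 0.196 at 15 months and 0.687 ± 0.509 at 21 months (SD, n = 2 each). The 21-month mice lay on both sides of the 15-month mice, and without replicate 2 at 21 months the 5 genes had 14 peaks in all. Among all named genes the median was 6 peaks per gene over the 6 lists, and the highest was 95. Prkaa2 with 9 peaks lay above that median, and Prkaa1 with 5, Stk11 with 4, Sirt1 with 3 and Sirt2 with 2 lay below it. No member had peaks in all 6 lists, a pattern found for 18.5% of the named genes. A gene needs at least 6 peaks for it, so among the 5 genes only Prkaa2 could have shown it.

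**Figure D1:**
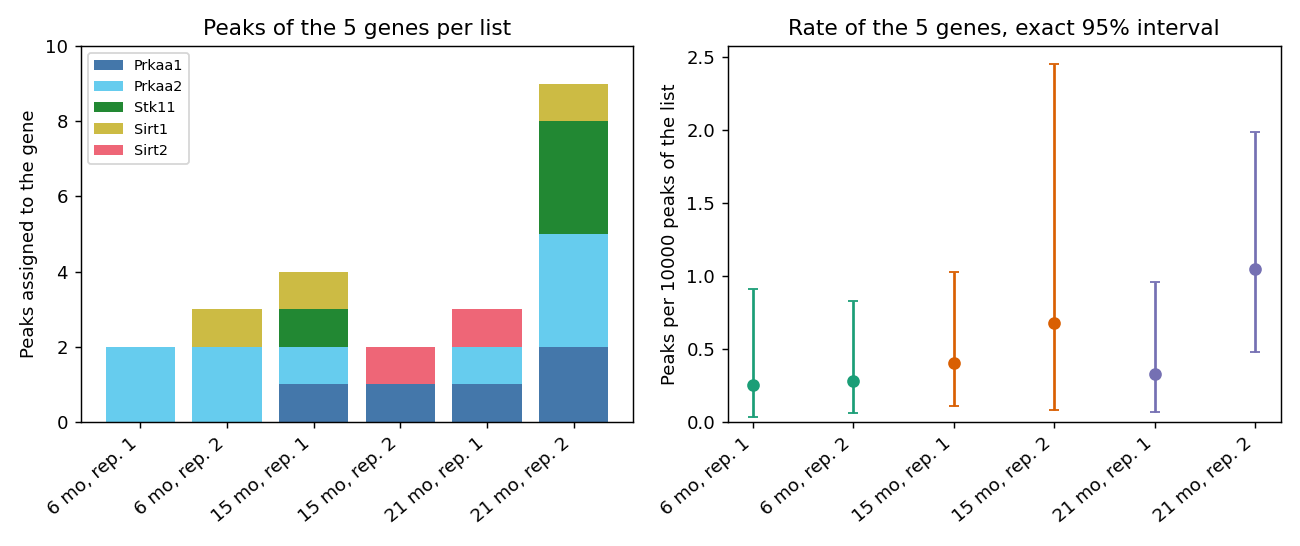
Left, stacked bars give the number of TRα peaks assigned to each of the 5 genes in each mouse (mo, months; rep., replicate). Right, points give the peaks of the 5 genes per 10000 peaks of the same list, with exact 95% intervals for counting error. The list of replicate 2 at 21 months holds 9 peaks, the other lists 2 to 4, and all 6 intervals overlap.

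Prkaa2, the α2 subunit gene, had the most peaks and was the member found in the most mice, 5 of 6. The 6-month mice had 2 peaks each, 0.253 and 0.188 per 10000 peaks of their lists. At 15 months replicate 1 had 1 (0.101 per 10000) and replicate 2 had 0, while the 21-month mice had 1 and 3 (0.109 and 0.349 per 10000). The single mouse without a Prkaa2 peak was replicate 2 at 15 months, which had the shortest list. The mean rates were 0.221 ± 0.0457, 0.0503 ± 0.0711 and 0.229 ± 0.170 at 6, 15 and 21 months (SD, n = 2 each), and the 21-month mice spanned the values of both 6-month mice.

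The 9 Prkaa2 peaks lay on chromosome 4 between 104913421 and 104982964 (GRCm39), a span of 69.5 kb, and no base was covered in more than 1 mouse. The strongest was in replicate 2 at 21 months at 104972459 to 104973035, with a pileup of 6 fragments and a fold of 3.76 over local background. Its q was 0.192, the lowest of all 23 peaks, and its fold exceeded that of 93.9% of the peaks in its list. At 6 months, replicate 1 had peaks at both ends of the span, 104913421 to 104913644 and 104982675 to 104982964, each with a pileup of 6 and a fold of 3.19. Replicate 2 at 6 months had peaks at 104925129 to 104925529 and 104963902 to 104964176, with folds of 2.82 and 2.31. The closest approach between mice was 494 bp, between the first of these and a peak at 104924297 to 104924635 in replicate 2 at 21 months. That 21-month peak had a pileup of 3, a fold of 2.20 and a q of 1, and 0.0954% of the peaks in its list had a lower fold. The remaining peaks, at 104928303 to 104928507 (15 months, replicate 1), 104922231 to 104922479 (21 months, replicate 1) and 104939264 to 104939542 (21 months, replicate 2), had folds of 2.29, 2.67 and 2.92.

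Prkaa1, the α1 subunit gene, had peaks in every mouse at 15 and 21 months and in neither mouse at 6 months. Each 15-month mouse had 1 peak, at rates of 0.101 and 0.340 per 10000 peaks, and the 21-month mice had 1 and 2, at 0.109 and 0.233. The 15-month and 21-month mice overlapped, and both groups lay above the 6-month mice. A count of 0 in the 6-month lists has exact 95% upper limits of 0.467 and 0.348 per 10000 peaks, and every rate of the older mice lay below both. These are limits of single lists, so the comparison does not test a difference from the 6-month mice, and none is claimed from it. Presence in both 15-month mice and absence from both 6-month mice was found for 2.03% of the 395 named genes. The same pattern at 21 against 6 months was found for 2.28%, and both counts share the 6-month mice. With 3 ways to divide 4 mice into pairs, the pattern was counted and not tested. Prkaa1 was the only member to show either. No member had the reverse patterns, at 6 and not 15 months (3.29% of named genes) or at 6 and not 21 months (3.04%). Nor did any differ in this way between 15 and 21 months, with 2.03% of named genes at 15 only and 4.56% at 21 only.

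All 5 Prkaa1 peaks were shallow and at different places. Each had a pileup of 4 fragments, and their folds ran from 2.74 to 2.95, with q from 0.789 to 0.992. They lay on chromosome 15 at 5190083 to 5190345 (15 months, replicate 1), 5175470 to 5175685 (15 months, replicate 2) and 5171684 to 5172176 (21 months, replicate 1). Those of replicate 2 at 21 months were at 5169224 to 5169432 and 5180407 to 5180618. The nearest pair of Prkaa1 peaks from different mice was 2.25 kb apart. None of the 5 had a pileup of at least 5, so under that limit Prkaa1 had no peak at any age.

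The 6-month mice did have peaks close to this stretch that were not assigned to Prkaa1. Replicate 1 at 6 months had one 7.70 kb beyond the right end, at 5198049 to 5198271, with a fold of 2.70. It overlapped an unassigned peak of replicate 1 at 15 months at 5198130 to 5198504, with a fold of 2.95. Replicate 2 at 6 months had its nearest peak 11.9 kb from the left end, at 5157091 to 5157336. The pattern of Prkaa1 with age therefore covers the 21.1 kb between its outermost assigned peaks and not the flanks. The peak with the lowest q within 40 kb of the Prkaa1 peaks was unassigned too, in replicate 1 at 15 months at 5156627 to 5157006, with a fold of 4.72 and a q of 0.00982. The flanking peaks were chosen after seeing their values.

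Stk11, the gene of the AMPK-activating kinase LKB1, had 4 peaks, 3 of them in 1 mouse. Replicate 1 at 15 months had 1 peak (0.101 per 10000 peaks) and replicate 2 at 21 months had 3 (0.349 per 10000). Both 6-month mice and the other mouse of each later age had 0, so the ages overlapped. The 15-month peak, on chromosome 10 at 79951126 to 79951442, had a pileup of 5 and the highest fold of the gene, 3.24, with a q of 0.396. The peaks of replicate 2 at 21 months were at 79947013 to 79947266, 79948215 to 79948465 and 79961445 to 79961786, with folds of 2.85, 2.21 and 3.22. No position was covered in more than 1 mouse. An unassigned peak of replicate 2 at 6 months lay 2.29 kb past the last of these, at 79964079 to 79964372. It had a pileup of 7, a fold of 4.35 and a q of 0.0280, and it too was chosen after seeing its values.

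Sirt1, the nuclear deacetylase, had exactly 1 peak at each age, each in a single mouse. It was found in replicate 2 at 6 months, replicate 1 at 15 months and replicate 2 at 21 months, at 0.0942, 0.101 and 0.116 per 10000 peaks. The other mouse of each age had 0, so the ages overlapped. The peaks lay on chromosome 10 at 63211082 to 63211317 (6 months), 63204373 to 63204750 (15 months) and 63216541 to 63216799 (21 months), at least 5.22 kb from one another. Each had a pileup of 5. Their folds were 3.59, 3.01 and 3.22, above those of 88.4%, 74.3% and 75.2% of the peaks in their own lists. Sirt1 was the only member with every peak above the middle of its list by fold, but the lowest of its q values was 0.234.

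Sirt2, the cytoplasmic deacetylase, had 2 peaks, and they were the only pair among the 23 that met at one place in different mice. One was in replicate 2 at 15 months and one in replicate 1 at 21 months, at 0.340 and 0.109 per 10000 peaks, and the 4 other mice had 0. On chromosome 7 the 15-month peak covered 28463611 to 28463850 and the 21-month peak 28463754 to 28464010. They shared 97 bp, 40.4% of the first and 37.7% of the second, and their summits were 41 bp apart. Both had a pileup of 5, with folds of 2.98 and 3.31 and q of 0.666 and 0.544. The 6-month mice and the other mice at 15 and 21 months had no peak there. The nearest was in replicate 2 at 6 months, 2.86 kb away at 28460430 to 28460749 and unassigned. The annotation text of this gene listed the orthologue entries of both SIRT2 and SIRT3, while its protein accessions were those of sirtuin 2.

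**Figure D2:**
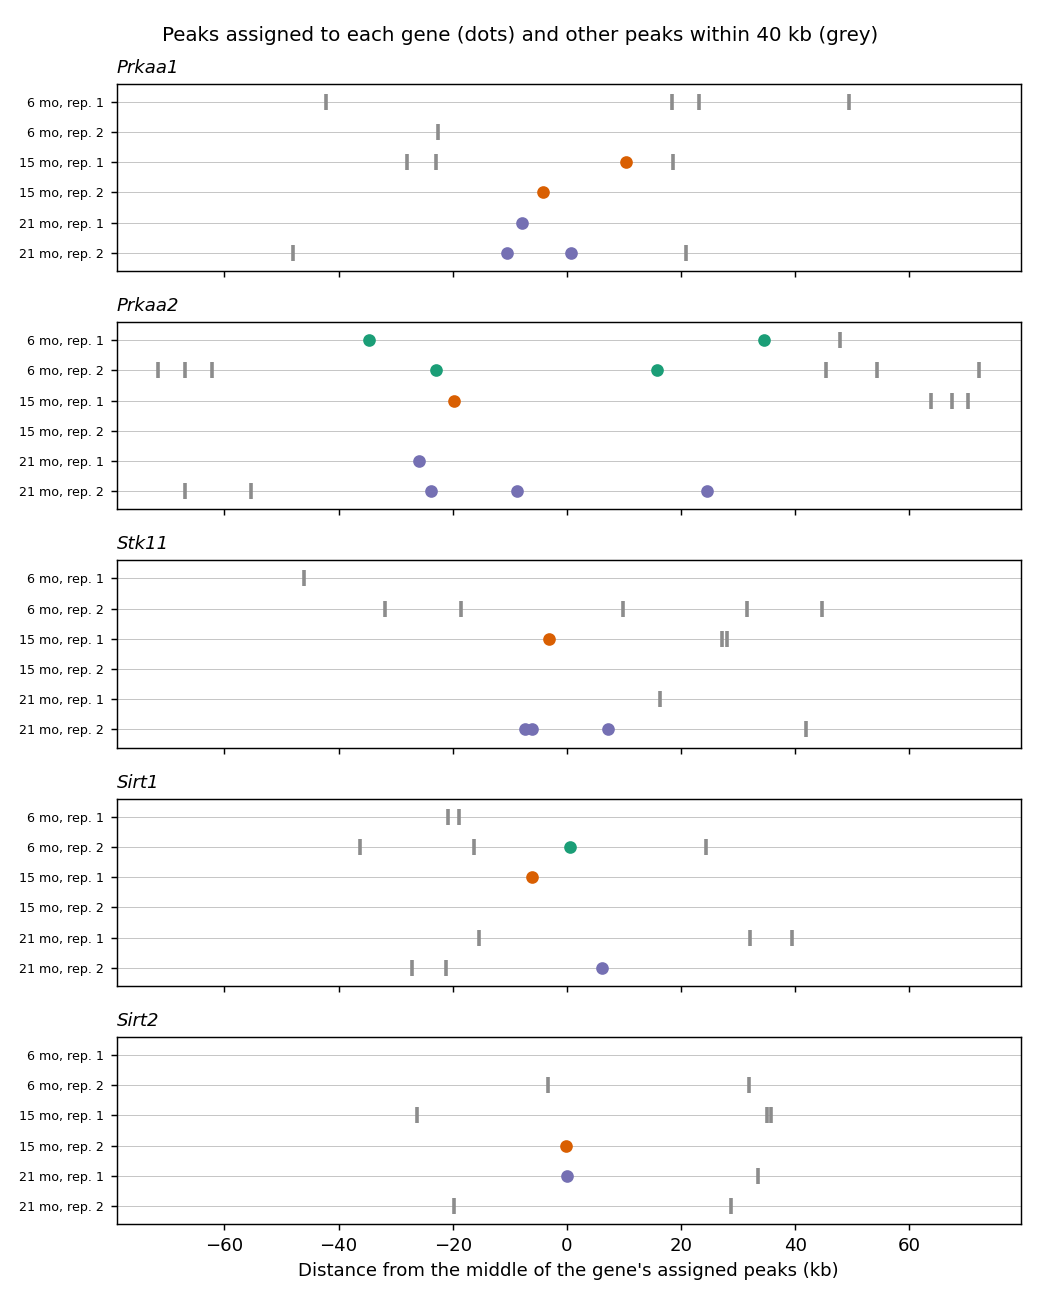
Each panel shows 1 gene, with a line for each mouse and the distance in kb from the middle of the assigned peaks on the x axis. Coloured dots are the peaks assigned to the gene (green 6, orange 15, purple 21 months) and grey marks are other peaks within 40 kb of the outermost dots. Dots of different mice fall at different places, except for Sirt2, where the 15-month and 21-month peaks share 97 bp.

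Overlap between mice was counted in 3 ways, and under each the members' number was 0 or the 2 Sirt2 peaks, too few to set the 5 genes apart. Of the 23, 2 (8.70%) were overlapped by a peak of another mouse by at least 1 bp, against 11.1% of the 3812 gene-named peaks and 12.8% of all peaks. None was overlapped by a peak of the other mouse of the same age, which held for all but 100 of the 3812 gene-named peaks and all but 15162 of the 491681. With a reciprocal overlap of at least 50% the number for the 5 genes was 0 of 23, against 4.70% of gene-named peaks and 5.85% of all peaks. With summits within 100 bp it was again 2 (8.70%), here against lower shares of 4.59% and 5.41%. No peak of another gene and no unnamed peak fell between the outermost peaks of any member. These spans were set by the assigned peaks themselves, and that of Sirt2 was only the 400 bp its 2 peaks cover. Peaks outside the spans may still belong to a member.

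The peaks of the 5 genes were near the middle of their lists in strength. The number of fragments at the summit was 3 for 3 peaks, 4 for 10, 5 for 7 and 6 for 3, and no peak had more. The median fold was 2.92 for the 23 peaks and 2.82 for both the gene-named peaks and all peaks. Within its own list a peak of the 5 genes exceeded a median of 48.8% of the peaks by fold, and 10 of the 23 lay above 50%. The highest fold was 3.76, whereas the highest fold in single lists ran from 269 to 1543. None of the 23 had a q of at most 0.05, which 1.99% of gene-named peaks and 2.21% of all peaks had. The lowest q of the 23 was 0.192, so none of these peaks by itself shows that TRα was bound there. The local background in input was within 1% of the lowest level of the list for 8 of the 23 peaks and at most 1.84 times that level for the rest. Between the lists the share of peaks with a q of at most 0.05 ran from 1.16 to 4.27%, and it was highest in the shortest list.

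**Figure D3:**
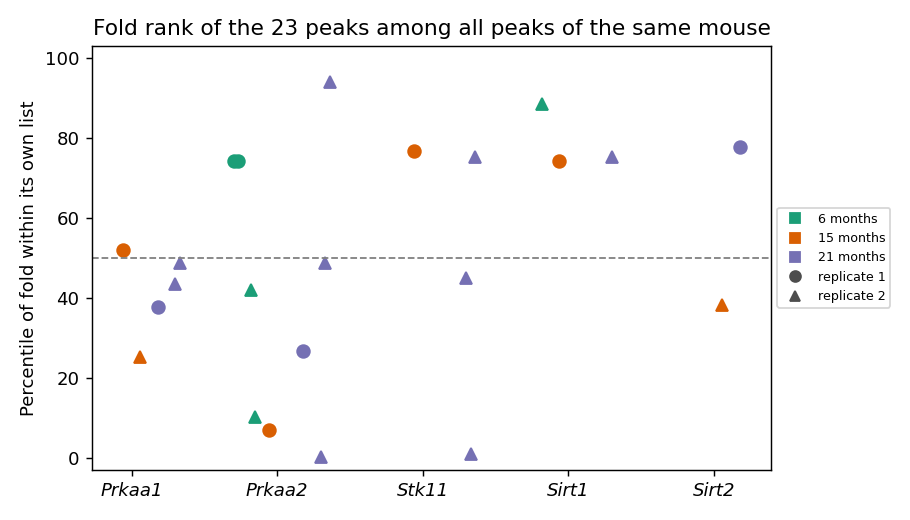
Each symbol is 1 of the 23 peaks, placed by the percentage of peaks in the same mouse's list with a lower fold (y axis) and grouped by gene (x axis). Colours give the age and shapes the replicate, and the dashed line is at 50. The peaks spread from 0.0954 to 93.9, with 10 of 23 above the line and all 3 of Sirt1 among them.

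Peak density around the genes was set beside that of their chromosomes, a readout chosen after the data were seen. In the 100 kb centred on the peaks of Prkaa2 all 6 lists together had 11 peaks, assigned or not, where the mean density of the chromosome gave 19.4. The window at Prkaa1 had 15 peaks against 19.1, that at Stk11 14, that at Sirt1 15 and that at Sirt2 17 against 19.2 each. Each window was centred on peaks of the gene, so it held at least those. At Prkaa2 no list exceeded the mean of its chromosome, at Prkaa1 3 did, and at each of the other genes 2 did. Replicate 2 at 15 months had 0 peaks in the windows of Prkaa2, Stk11 and Sirt1, and its mean on chromosome 10 was 1.09 per 100 kb. This was a description, and no test was made.

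**Figure D4:**
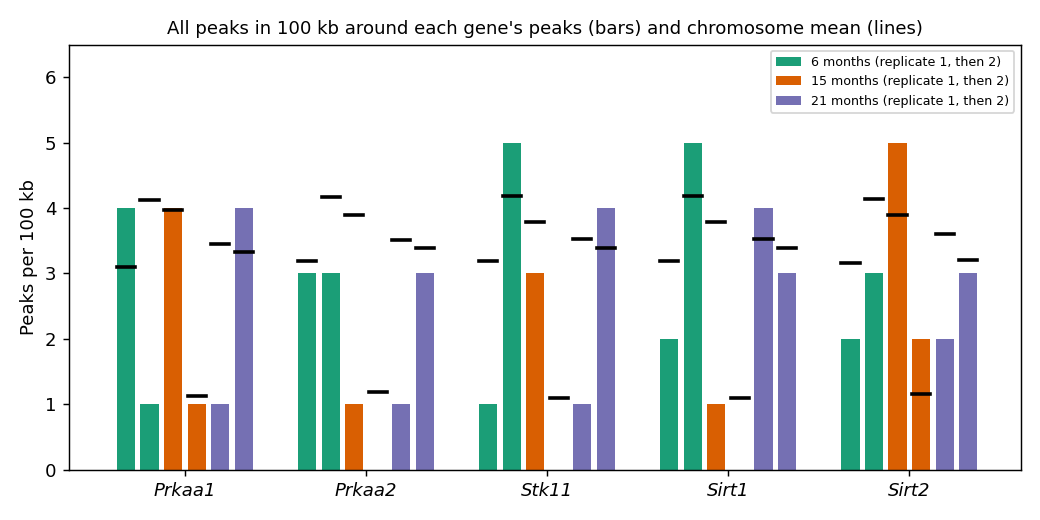
Bars give the number of all peaks, assigned or not, in the 100 kb around the peaks of each gene, 1 bar per mouse in the order 6, 15 and 21 months with replicate 1 first. Black lines give the mean number of peaks per 100 kb of the same chromosome in the same list. At Prkaa2 every bar is below its line, and at the other genes bars lie on both sides.

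No trend with age was detected for any member. For each of the 395 named genes the rate per 10000 peaks was correlated with age across the 6 mice. The p was exact and two-sided, from all 90 ways to assign the ages, and was Benjamini-Hochberg adjusted over the 395. The smallest p these assignments can give is 0.0111, and no gene passed an adjusted p of 0.05 (0% of named genes). Over 395 genes, an adjusted p of 0.05 needs many genes at or near that smallest p together. A trend in only a few genes could therefore not pass. At an unadjusted p of at most 0.05 there were 9 genes (2.28%), 1 higher and 8 lower with age, and none was a member. Adjusted p was 1 for every member, by Pearson's r and by Spearman's rho.

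For Prkaa1, r was 0.63 (exact permutation p = 0.178) and rho 0.73 (exact permutation p = 0.133), and r was -0.25 without the 2 mice of 6 months. With every list shortened to the length of the shortest, r of Prkaa1 was 0.073, and without replicate 2 at 15 months it was 0.89 (exact permutation p = 0.0333, adjusted 0.873). For Stk11, r was 0.54 (exact permutation p = 0.4) and rho 0.49 (exact permutation p = 0.4), with r of 0.44 without those mice. Leaving out replicate 2 at 21 months gave Stk11 an r of 0.21, and leaving out replicate 1 at 21 months gave 0.81 (exact permutation p = 0.1). For Prkaa2, r was -0.054 (exact permutation p = 0.922) and rho 0 (exact permutation p = 1), with r of 0.70 without them. Sirt1 had r of 0.083 (exact permutation p = 0.733), rho of 0.25 (exact permutation p = 0.667) and r of 0.072 without them. Sirt2 had r of 0.24 (exact permutation p = 0.8), rho of 0.35 (exact permutation p = 0.667) and r of -0.42 without them. The r of Prkaa1, Prkaa2 and Sirt2 thus changed sign without the 6-month mice, and no other pair of mice was left out together. That of Prkaa2 was 0.70 without the 6-month mice and -0.70 without replicate 2 at 21 months.

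Of a chosen list of 52 further genes of the AMPK and sirtuin network, 7 were named, and none passed the age test in either direction. None of the 5 other AMPK subunit genes and none of the 7 genes for upstream kinases and their partners was among them. From the sirtuin and NAD list 1 of 8 was named, Parp1, which encodes an NAD-consuming DNA repair enzyme. The 6-month mice had 1 and 2 Parp1 peaks, replicate 1 at 15 months had 1 and the 3 other mice had 0 (r = -0.88, exact permutation p = 0.0333, adjusted 1). Its 4 peaks had folds of at most 3.11.

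The other 6 were of the 32 targets and effectors. Ppargc1a, Hdac4 and Mef2c had peaks in all 6 mice, as did 18.5% of the named genes. Each had 17 or more peaks, against a median of 6 for all named genes. Ppargc1a encodes PGC-1α, and Mef2c a transcription factor of muscle whose activity class IIa deacetylases such as Hdac4 restrain. Mef2c had the most, 53 peaks, with 6 and 15, 15 and 5, and 1 and 11 at the 3 ages (r = -0.22, exact permutation p = 0.744, adjusted 1). Ppargc1a had 35, with 5 and 9, 4 and 2, and 8 and 7. Hdac4 had 17 peaks, with 2 and 4, 3 and 1, and 4 and 3. Foxo3, a transcription factor of atrophy and stress programmes, had 23, with 5 and 6, 6 and 0, and 3 and 3. Pparg, a nuclear receptor of lipid storage, had 26, with 7 and 2, 5 and 0, and 6 and 6. Mtor, the growth kinase that AMPK restrains, had 4, in 1 mouse at 6 months (3) and 1 at 15 months (1). None of the peaks of these 7 genes had a q of at most 0.05, and their highest folds lay between 3.06 and 4.05, a range that holds the 3.76 of Prkaa2. Genes with the most similar profile over the lists were to be named for members with at least 10 peaks, and no member had that many.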

How the data were processed

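TRα ChIP-seq peak tables of 6 mice were used, 2 at each of 3 ages. The submitters' processing notes name MACS2 2.1.1.20160309, HOMER, SAMtools 1.3.1 and Trimmomatic 0.36 as tools, and GRCm39 and mm10 as builds. Aligner and caller options: not given in the sources used here. A scaffold whose name exists in GRCm39 and not in its predecessor was present in 5 of the 6 lists, so positions are given as GRCm39, counted from 1. The pileup deposited by the authors is a coverage signal, the fragments at the summit. The authors' deposited fold is the ratio of pileup to local input background, each plus 1. Significance is held in the deposited tables as −log10 p and −log10 q, under damaged headers, and the lists stop at p of 0.01. A Poisson p from pileup and fold was within 1% of the deposited p for 100% of peaks whose p could be computed. Fold, pileup and q describe or rank peaks within a list. The median pileup was 5 in replicate 1 at 6 months and replicate 2 at 15 months, and 4 in the other lists.

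Annotation text that had run over into extra lines named proteins, whose accessions were matched to symbols with the RefSeq table of GRCm38.p6, for names only. No genome of the files' build was used, so distance to a gene's start and the sequence under a peak were not analysed here. Python 3.11.15, NumPy 2.4.6 and SciPy 1.17.1 were used. The members, the pathway list and the tests were chosen with earlier results of these data known. The text names all 5 members, every pathway gene with a peak, and for each member its strongest peak, any with q of at most 0.05 and any region with peaks in 2 lists. Alternatives were limits on pileup and q, equal list lengths, other overlap rules, another denominator, a replicate block and leaving out each mouse. Read totals were not used here. The series' design text gives separate mice as replicates.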

Additional observations from a re-analysis of the deposited data

How the results depend on the processing

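The number of peaks of the 5 genes fell from 23 to 10 with a pileup of at least 5, to 11 when every list was shortened, by lowest p, to the length of the shortest and to 0 at q of at most 0.05. It lay between 14 (without replicate 2 at 21 months) and 21 with each mouse left out. The mean rate at 6 months moved to 0.338 and 0.510 per 10000 peaks under the first and second of these limits, and the rate was 0 at every age under the third. Prkaa1 lost its pattern, with 0 members having peaks at 15 or 21 and not at 6 months, under all 3 limits. With a mouse left out, the members with a peak in each remaining mouse of one age and in none of another numbered 1 to 2 at 15 not 6 months and 1 to 2 at 21 not 6 months. At 15 months Sirt2 joined Prkaa1 without replicate 1 and Stk11 joined it without replicate 2, and at 21 months Stk11 joined without replicate 1 and Sirt2 without replicate 2. They numbered 0 to 1 at 6 not 15 months and 0 to 1 at 21 not 15 months, where Prkaa2 was added without replicate 1 at 15 months. Such patterns are easier to meet with a mouse left out. Their share among all named genes was not counted, so nothing is drawn from the members that joined. A reciprocal overlap of 50% left 0 peaks shared, and summits within 100 bp left 2 (8.70%, against 4.59% of gene-named and 5.41% of all peaks). The median fold was 3.22 with a pileup of at least 5, and the median percentile of fold within a list was 48.8.

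The number of members past the age test was 0 under each alternative that could be run. This was nearly fixed in advance, because a trend in only a few genes cannot pass the adjustment. At q of at most 0.05 no member had a peak left. With genes of at least 10 peaks no member was left to test. The r of Prkaa2 turned to 0.021 with a pileup of at least 5, 0.19 without replicate 1 at 6 months and 0.074 without replicate 1 at 21 months, within a range of -0.70 to 0.19 as mice were left out. The r of Sirt1 turned to -0.020 with that limit, -0.24 without replicate 1 at 6 months and -0.27 without replicate 2 at 21 months, within a range of -0.27 to 0.40. The r of Prkaa1 was 0.073 with shortened lists and lay between 0.49 and 0.89 as mice were left out, highest without replicate 2 at 15 months. That of Stk11 was 0.46 with shortened lists and lay between 0.21 (without replicate 2 at 21 months) and 0.81 (without replicate 1 at 21 months). The cause was not tested. With the replicate number as a block, over 36 assignments, 0 members passed and the exact p of Prkaa1 was 0.139. The labels do not say that a number links mice, and same-numbered mice correlated at -0.12 to 0.034 over genes in their deviations from the age means. With 2 mice at each age these deviations mirror each other. Mice of different number therefore gave the same values with the opposite sign.

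At 3 to 6 fragments per peak, neither a peak nor its absence settles binding.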

Other observations

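RefSeq promoter windows of GRCm38.p6, from 250 bases before to 50 after a gene's start, were searched for the nuclear receptor half-site AGGTCA on both strands. Of the 5 windows of Prkaa1, Prkaa2, Stk11, Sirt1 and Sirt2, 0 held it, against 16.3% of all 32851 windows. This says only that these letters are not in these windows. Whether any of the 23 peaks reached a promoter was not analysed here.

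Another stretch near Prkaa2 had overlapping peaks in a pair of mice, 31.8 and 32.1 kb left of its outermost assigned peak and itself without a gene name. It lay on chromosome 4 at 104881122 to 104881357 in replicate 2 at 6 months (fold 3.67) and 104881074 to 104881590 in replicate 2 at 21 months (fold 2.79). Within 40 kb of the peaks of the 5 genes, this pair and the pair right of Prkaa1 were the only unassigned peaks that overlapped a peak of another mouse.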
